A study of Homo sapiens with 12 samples.

Results

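The replication-dependent histone genes were followed across 4 groups of MOLM14 leukemia cells. They were taken as the gene rows of the count table whose identifier maps to a protein-coding symbol H1-1 to H1-5 or to one starting with H2AC, H2BC, H3C or H4C, with a summed count of at least 100 over the 12 libraries. This gave 39 genes of 61487 gene rows: 3 of linker histone H1, 10 of H2A, 13 of H2B, 6 of H3 and 7 of H4. In all, 69 protein-coding rows carried such a symbol. Of these, 30 lay below the minimum, 9 of them without a count in any library, and 13 pseudogene rows were left out. The lowest genes inside the limit were H2BC6 with 112 counts and H2AC15 with 128, and the highest outside it were H4C16 with 91 and H4C4 with 82. The rule itself uses names and the sum over all libraries, and all 39 genes passed the filter on low counts.

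Histone mRNAs of this class are made in S phase, when the cell doubles its chromatin, and supply the H1 linker and the H2A, H2B, H3 and H4 core proteins for the new nucleosomes. They are the known exception among animal mRNAs in ending in a short stem-loop instead of a poly(A) tail. The stem-loop is bound by SLBP, and the 3′ end is cut with the help of the U7 small nuclear ribonucleoprotein. A few of the genes can also give a longer, polyadenylated mRNA, known above all from cells that differentiate or have left the cycle. A library made from poly(A) RNA holds mainly such forms, and a library made by removing ribosomal RNA holds both.

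MOLM14 is a human acute myeloid leukemia line. The genotype given for every library is shRIP140, a doxycycline-inducible short hairpin RNA against RIP140, the nuclear receptor coregulator that NRIP1 encodes. The groups were untreated cells, cells kept for 48 h with 1 µM all-trans retinoic acid (ATRA), cells given doxycycline (DOX, 50 ng/mL, refreshed every other day) to switch on the hairpin, and cells given both (ATRA+DOX), with 3 biological replicates each. The title of the series speaks of RIP140 restraining the ATRA response, and the 4 groups allow each agent to be compared with and without the other. The untreated and ATRA groups carry the uninduced hairpin. No library with a control hairpin was analysed here, so DOX itself and the hairpin cannot be told apart, and all values come from a single line. The kit or method that selected RNA before sequencing is not given in the sources used here; the labels name total RNA.

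The stem-loop is the feature that sets these mRNAs apart, and it could be read from the annotated transcripts of GENCODE release 29 (GRCh38). The motif searched was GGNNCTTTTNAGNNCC on the transcript strand, with its 6 stem bases paired around a loop of 4. It stood in a transcript of 17 of the 38 histone genes that had one, and in 34 of 19684 protein-coding genes as a whole (0.173%), 7 of these outside the histone rows. Many other models stop at the end of the coding part, such as the 312 bases of H4C1 or the 381 of H2BC12, and for these no match says only that the letters are not in the model. There were 4 different cores. The first was in 10 genes, the second in 3, the third in 3 and the fourth in 1. The lines show each core in capitals, with 5 transcript bases on either side, for a gene that carries it.
H2BC21: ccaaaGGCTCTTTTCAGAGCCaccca
H4C5: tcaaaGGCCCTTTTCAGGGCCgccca
H2BC5: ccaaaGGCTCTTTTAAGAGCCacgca
H4C9: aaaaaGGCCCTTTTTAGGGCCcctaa
The cores differ at the positions the motif leaves free. Some annotated transcripts run on past the stem-loop. Whether that stretch was counted is not known, since the annotation release used in counting is not given in the sources used here. The lengths given next are of 1 transcript a gene, the first by identifier that holds the stem-loop with its flanks. H2AC6 has 3 annotated transcripts, H2BC18 5, and H2BC4 and H2BC5 2 each, so other transcripts of these genes may differ. Of genes known to give polyadenylated mRNA, H2BC21 had 1729 bases after the stem-loop and H2AC6 1128, but H2BC4 had 116 and H2BC5 39. Of other genes, H2BC18 had 1479 and H4C5 1022, against 39 in H2AC13 and 51 in H2AC8.

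The promoters were looked at because most members moved together. RefSeq windows (GRCh38.p14, 250 bases before to 50 after the start) were found for 34 of the 39 genes and searched on both strands for the octamer ATTTGCAT, known from H2B promoters, for CCAAT and for TATAAA. The octamer stood in 17 of 34 windows (50.0%) against 1.77% of 35116 windows of all genes. By type these were 10 of 13 H2B and 7 of 9 H2A windows, and none of the 3 H1, 4 H3 and 5 H4 windows. No H2A gene held the whole octamer in the 120 bases before its start, whereas most H2B genes with a match did. CCAAT was in 31 of 34 (91.2%, 34.6% of all windows) and TATAAA in 24 of 34 (70.6%, 11.5% of all). Histone genes often lie head to head, and 14 of the 34 windows shared bases with another member's window, among them 10 of the 17 with the octamer. TATAAA and its reverse complement can overlap, and CCAAT and the octamer can share their end bases. The lines give the 120 bases before the start, on the strand of the gene, with matches on either strand in capitals.
H2BC21 (chr1:149886683-149886802, minus strand): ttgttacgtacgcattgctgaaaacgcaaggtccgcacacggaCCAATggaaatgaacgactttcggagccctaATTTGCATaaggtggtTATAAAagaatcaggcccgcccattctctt
H2BC12 (chr6:27146859-27146978, minus strand): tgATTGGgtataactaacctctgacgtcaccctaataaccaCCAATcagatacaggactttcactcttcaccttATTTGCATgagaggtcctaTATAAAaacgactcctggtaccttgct
H2BC14 (chr6:27814902-27815021, plus strand): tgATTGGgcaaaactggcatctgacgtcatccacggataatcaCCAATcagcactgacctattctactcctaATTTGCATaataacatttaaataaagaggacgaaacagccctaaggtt
H1-4 (chr6:26156209-26156328, plus strand): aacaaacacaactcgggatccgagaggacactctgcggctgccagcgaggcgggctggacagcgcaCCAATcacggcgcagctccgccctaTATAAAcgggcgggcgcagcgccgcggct
H3C2 (chr6:26032100-26032219, minus strand): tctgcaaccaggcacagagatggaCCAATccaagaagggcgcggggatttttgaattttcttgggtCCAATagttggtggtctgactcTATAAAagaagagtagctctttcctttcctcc
H4C2 (chr6:26027284-26027403, minus strand): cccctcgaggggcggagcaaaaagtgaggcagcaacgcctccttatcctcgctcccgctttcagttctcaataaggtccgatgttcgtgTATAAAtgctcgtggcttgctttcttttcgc
H2BC21 and H2BC12 carry CCAAT, the octamer and TATAAA in the same order, while H2BC14 has CCAAT and the octamer but no TATAAA in the stretch. H2BC12 and H2BC14 hold CCAAT on both strands. H1-4 and H3C2 hold CCAAT and TATAAA, and H4C2 holds TATAAA alone in the stretch shown.

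The members lie in 3 stretches of GRCh38: 16 on chr6:26020490-26285638, 18 on chr6:27125897-27893843 and 5 on chr1:149782689-149887916. Exons of 7 of the 38 members that could be checked overlapped another gene, such as those of H2BC15 with H2AC15 and H2AC16, and the strand setting of the counting is not given. Near-identical copies also matter here. H2AC14 shared 80.9% of its 100-base windows with H2AC13, and H2BC12 shared 28.4% with H2BC12L, which had 2 counts in all libraries. Among the genes below the minimum, H3C14 and H3C15 shared all their windows with each other or H3C13, so reads of such pairs may be lost or split.

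Gene counts per library ran from 2685984 to 19358619, the lowest being DOX replicate 3, whose 407 member counts make single genes imprecise: 3 counts there equal 1.12 CPM (counts scaled to a common library size). Levels below are CPM after scaling with the trimmed mean of M-values (TMM). NRIP1 was at 59.7, 58.9 and 53.3 CPM in untreated replicates 1 to 3, at 38.4, 41.1 and 51.9 with ATRA, at 19.2, 14.99 and 15.7 with DOX and at 15.9, 20.9 and 19.95 with both, so the 6 libraries given DOX were the lowest. All 10 myeloid leukemia markers were expressed (summed 1732 to 2386 CPM over the libraries). Of the lymphoid markers 3 of 6 passed the filter (summed 49.1 to 79.9 CPM, with PAX5 lower under ATRA by −0.40 ± 0.11) and of the fibroblast and epithelial markers KRT8 alone (summed 13.7 to 26.1). CD3E and EPCAM, which define T cells and epithelium, were at 0 in every library. The share of counts on the mitochondrial ribosomal RNAs MT-RNR1 and MT-RNR2 varied, at 2.54, 2.85 and 4.6% in untreated replicates 1 to 3, 2.09, 2.75 and 2.64% with ATRA, 2.18, 1.02 and 1.30% with DOX and 1.98, 2.02 and 1.24% with both.

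Histone mRNA made up a small share of each library, and that share was highest in the untreated cells. Reads of the 39 genes were 0.0326, 0.0470 and 0.0599% of the counts in untreated replicates 1 to 3, 0.0254, 0.0295 and 0.0242% with ATRA, 0.0291, 0.0143 and 0.0152% with DOX and 0.0239, 0.0273 and 0.0190% with both. Exact (Clopper-Pearson) 95% intervals were narrow, the widest being 0.0137 to 0.0167% in DOX replicate 3, and they cover counting error only. Summed levels were 463 ± 136 CPM in untreated cells, 261 ± 33.5 with ATRA, 197 ± 74.3 with DOX and 234 ± 41.9 with both (mean ± SD, n = 3). Every untreated library lay above all 9 others. In bulk RNA, fewer cells in S phase and less histone mRNA per cell cannot be told apart.

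**Figure D1:**
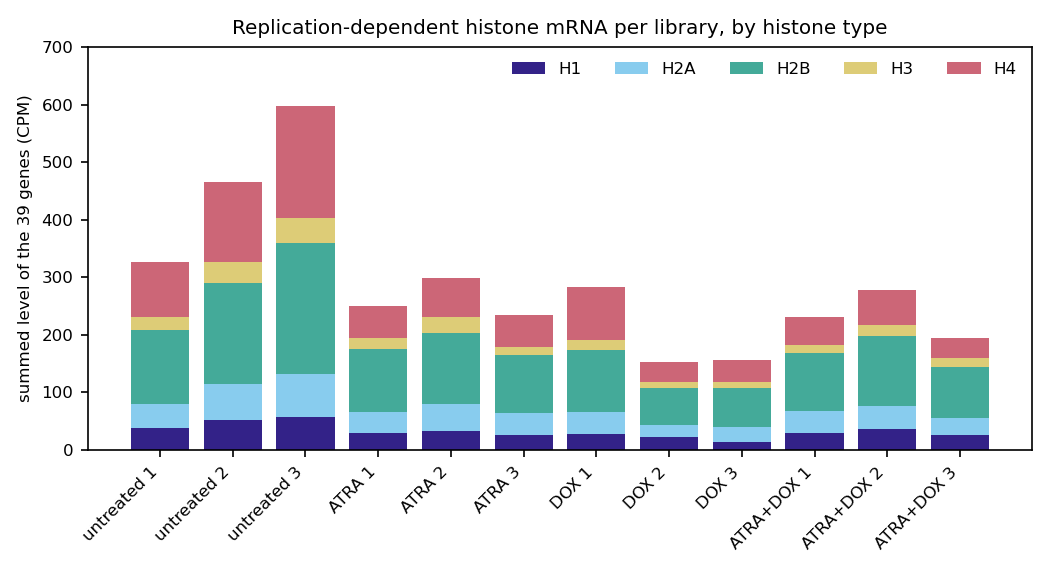
Summed level of the 39 histone genes in each of the 12 libraries (CPM after TMM scaling), stacked by histone type. The untreated libraries reach 327, 465 and 598 CPM, the ATRA libraries 249.9, 298 and 234, the DOX libraries 283, 152 and 156, and the ATRA+DOX libraries 230.4, 278 and 194.5.

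Within each group most of the genes had the same replicate highest. Untreated replicate 3 was the highest of its group for 35 of the 39 genes and untreated replicate 1 the lowest for 37. In the DOX group replicate 1 was highest for 35 genes, and the lowest was replicate 3 for 22 and replicate 2 for 17. For 11 genes DOX replicate 1 lay inside the untreated range. ATRA replicate 2 led its group for 31 genes, and ATRA+DOX replicate 2 for 29. In each of the 4 groups the library with most histone mRNA was also the one with most mitochondrial ribosomal RNA, which is transcribed in the mitochondrion. The order did not hold throughout. ATRA replicate 3 had a larger share of it than ATRA replicate 1 (2.64 against 2.09%) but less histone mRNA (234 against 249.9 CPM). ATRA replicates 2 and 3 (2.75 and 2.64%) had larger shares than untreated replicate 1 (2.54%), but less histone mRNA (298 and 234 against 327 CPM).

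**Figure D2:**
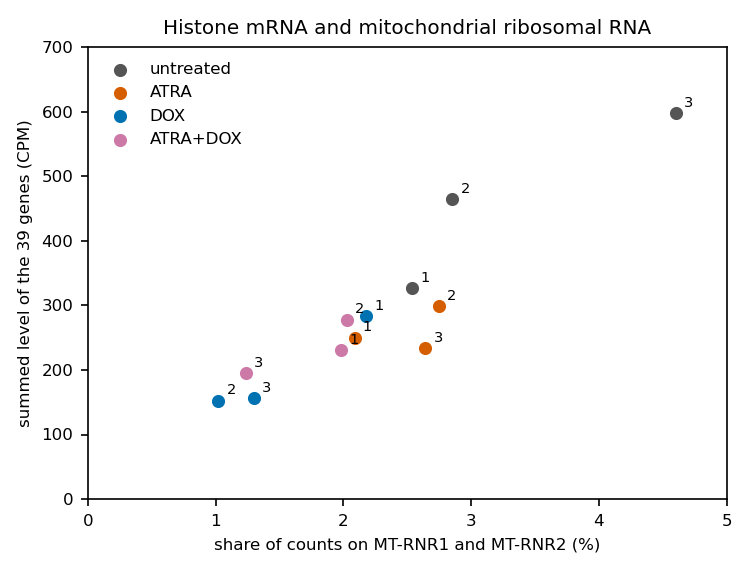
Summed level of the 39 histone genes (vertical, CPM) against the share of counts on MT-RNR1 and MT-RNR2 (horizontal, %), a point per library with its replicate number. Untreated replicate 3 is highest on both axes (598 CPM and 4.6%), and DOX replicate 2 is lowest on both (152 CPM and 1.02%).

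Levels of single genes differed widely, and they can be compared per kilobase of annotated exon. In untreated cells H2BC12 was highest at 70.7 ± 14.1 CPM per kilobase (mean ± SD, n = 3). H4C1 (49.4 ± 21.8), H4C3 (47.9 ± 12.1) and H4C5 (43.2 ± 15.8) came next. Neighbours in this order overlapped in their libraries, and so did those that followed, H2BC17 (33.7 ± 8.82), H1-4 (28.6 ± 4.76), H3C2 (26.5 ± 6.72) and H1-2 (25.3 ± 5.996). The lowest was H2BC6 at 0.280 ± 0.146. The annotated models differ in whether they hold the stretch after the stem-loop, and the longest, H2BC15 with 5477 bases, had 3.00 ± 0.870 CPM per kilobase. Those of H2BC12 (381 bases) and H4C1 (312), at the top of the order, stop at the end of the coding part. The lengths used in counting are not known, so the order depends on these models.

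In DOX against untreated 34 of the 39 histone genes fell and 0 rose (edgeR quasi-likelihood test, adjusted over 16104 genes). Among all genes tested 7.1% were called lower and 8.08% higher in this comparison. The members' median log2 change was −1.30, with single genes from −1.77 to −0.22, beside a median of 0.01 over all genes. For 27 members all DOX libraries lay below all untreated ones, which held for 13.9% of the genes tested. By type the counts were 3 of 3 for H1, 8 of 10 for H2A, 11 of 13 for H2B, 5 of 6 for H3 and 7 of 7 for H4. The 5 that did not pass were H2AC6, H2AC15, H2BC6, H2BC12 and H3C12.

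This count leaned on a few libraries. Without untreated replicate 3, and again without DOX replicate 2, 14 genes were called lower, and they were the same 14: H1-2, H1-4, H1-5, H2AC8, H2AC13, H2BC5, H2BC7, H2BC13, H2BC14, H2BC15, H2BC17, H2BC21, H3C2 and H4C3. These passed whichever single library was left out. Without untreated replicate 3 and DOX replicate 3 together 4 were called (H1-5, H2AC8, H2BC21 and H3C2), with a median of −0.99. MT-RNR1 and MT-RNR2 were both called lower under DOX as well, by −1.35 ± 0.28 and −1.01 ± 0.23 (log2 ± SE). With the log2 share of mitochondrial ribosomal RNA as a term in the model 0 members were called by edgeR, and the median was −0.39. All DOX libraries had a lower share than all untreated ones, so in this comparison the share and the treatment cannot be fully told apart.

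ATRA against untreated gave 26 histone genes lower and 1 higher (edgeR), where 13.2% of all genes tested were called lower and 15.7% higher. The median over members was −0.93, and over all genes −0.01. For 22 members every ATRA library lay below every untreated one (22.5% of the genes tested), and for 1, H2AC6, above (22.8%). All 7 H4 genes fell, as did 10 of 13 for H2B, 2 of 3 for H1, 5 of 10 for H2A and 2 of 6 for H3. Without untreated replicate 3 the count was 14 lower and 2 higher, and with the mitochondrial ribosomal RNA term 18 lower and 2 higher, with 19 of the 27 genes called either way. The ATRA and DOX comparisons share the untreated libraries. Side by side, 26 genes were called lower in each of them, 8 were called lower under DOX and not under ATRA (H1-2, H2AC11, H2AC12, H2AC21, H2BC4, H3C1, H3C10 and H3C13), and 4 were called in neither.

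**Figure D3:**
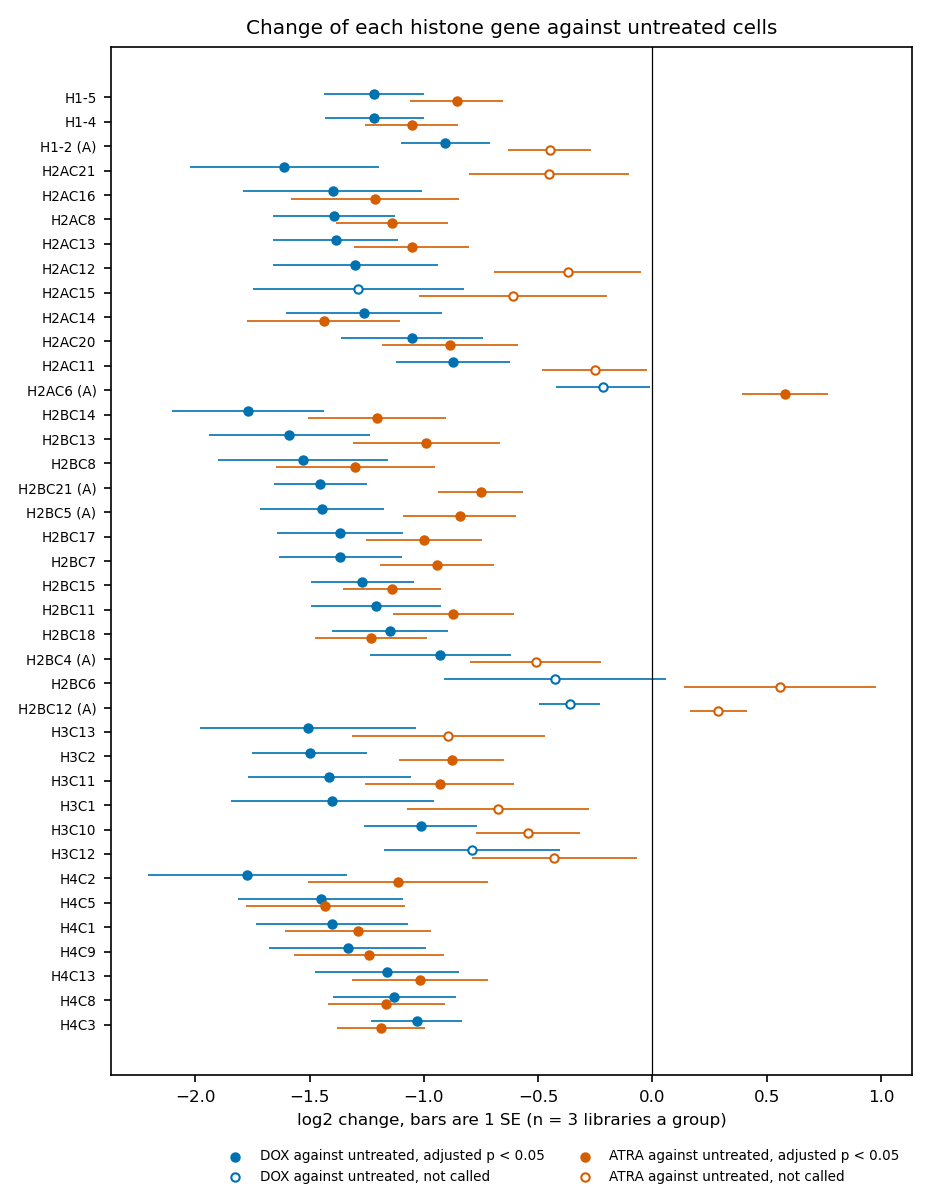
Log2 change of each of the 39 genes against untreated cells under DOX (blue) and ATRA (orange), bars 1 SE, filled points called at an adjusted p under 0.05, (A) marking genes known to give a polyadenylated form. Under DOX 34 filled points lie below 0 and none above; under ATRA 26 lie below, and H2AC6 at 0.58 lies above.

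Linker histone H1 binds the DNA between nucleosomes, and its 3 measured genes fell under DOX. H1-4 was at 17.97, 21.6 and 25.1 CPM in untreated replicates 1 to 3, at 9.79, 12.2 and 9.54 with ATRA, at 12.4, 7.47 and 6.91 with DOX and at 8.72, 14.9 and 8.57 with both. No treated library reached the lowest untreated one. The log2 change was −1.22 ± 0.22 under DOX (edgeR adjusted p = 0.00194) and −1.05 ± 0.20 under ATRA (adjusted p = 0.000502). H1-5 changed by −1.22 ± 0.22 under DOX and by −0.86 ± 0.20 under ATRA. H1-2, the linker gene known to give a polyadenylated mRNA too, stood at 11.8, 18.5 and 18.4 CPM in untreated cells, 13.6, 13.0 and 9.16 with ATRA, 9.55, 9.00 and 5.76 with DOX and 14.01, 14.5 and 10.8 with both. Only its DOX libraries were all below the untreated ones. Its log2 change was −0.91 ± 0.20 under DOX (edgeR adjusted p = 0.00596), and its ATRA value of −0.45 ± 0.18 did not pass (adjusted p = 0.0695).

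H2A and H2B pair as dimers in the nucleosome, and most of their genes lie side by side. H2BC21 was at 15.2, 19.6 and 24.1 CPM in untreated cells, at 11.2, 14.9 and 9.35 with ATRA, at 8.84, 6.42 and 5.38 with DOX and at 8.60, 10.8 and 7.92 with both. Each treated library was below each untreated one. It had the smallest adjusted p of the set under DOX, with −1.45 ± 0.20 (adjusted p = 0.000324), and −0.75 ± 0.19 under ATRA (adjusted p = 0.00408). H2BC18, on chromosome 1 as well, went from 20.3, 27.9 and 40.6 CPM to 12.4, 16.5 and 9.64 with ATRA, 17.2, 10.98 and 11.5 with DOX and 11.7, 16.9 and 7.70 with both. Its groups did not overlap with the untreated one either, and the changes were −1.15 ± 0.25 under DOX and −1.23 ± 0.25 under ATRA. Its exons overlap FCGR1A on the other strand.

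H2BC14 had one of the lowest values under DOX, −1.77 ± 0.33 (adjusted p = 0.00274), with 5.89, 8.06 and 9.23 CPM in untreated cells against 3.42, 1.54 and 1.54 with DOX, without overlap. With ATRA it was at 2.86, 4.67 and 2.80 CPM (−1.21 ± 0.30). H2BC13 was without a count in DOX replicate 3, where 3 counts would be 1.12 CPM, and at 3.26 and 2.14 CPM in the other DOX libraries, against 4.35, 7.97 and 8.40 untreated. H2AC14 had the lowest ATRA value of the set, −1.44 ± 0.34, and −1.26 ± 0.34 under DOX. It shares much of its sequence with H2AC13, which changed by −1.05 ± 0.25 under ATRA and −1.39 ± 0.27 under DOX. H2AC8, unlike these, shares no 100-base window with another histone row and changed by −1.39 ± 0.27 under DOX and −1.14 ± 0.25 under ATRA.

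H3 and H4 form the tetramer at the core of the nucleosome. H4C5 had the most counts of the 39 genes (5100 in all) and stood at 41.3, 63.3 and 88.2 CPM in untreated cells, at 21.7, 27.6 and 23.2 with ATRA, at 43.1, 9.00 and 16.9 with DOX and at 21.6, 22.9 and 11.1 with both. Its ATRA libraries lay below all untreated ones, whereas DOX replicate 1 lay within the untreated range. The changes were −1.45 ± 0.36 under DOX (adjusted p = 0.0119) and −1.43 ± 0.35 under ATRA (adjusted p = 0.00357). H4C3 was less scattered, with 15.8, 20.3 and 26.4 CPM untreated, 8.58, 10.5 and 8.77 with ATRA, 11.5, 9.99 and 8.06 with DOX and 6.19, 10.1 and 5.96 with both. It changed by −1.03 ± 0.20 under DOX and by −1.19 ± 0.19 under ATRA (adjusted p = 7.12e-05), the smallest adjusted p of the set under ATRA. H4C2 had the value furthest below 0 under DOX, −1.77 ± 0.44, with 6.77, 0.933 and 0.768 CPM in the DOX replicates, so that replicate 1 was level with the lowest untreated library at 6.67 and the others lay far below it.

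H3C2 was the H3 gene with the highest level per length and changed by −1.50 ± 0.25 under DOX and −0.88 ± 0.23 under ATRA. It stood at 9.56, 15.3 and 15.7 CPM in untreated cells and at 5.65, 4.28 and 4.22 with DOX. H3C1, H3C10 and H3C13 also fell under DOX, with log2 changes of −1.40 ± 0.45, −1.01 ± 0.25 and −1.51 ± 0.47, and had ATRA values of −0.68, −0.54 and −0.89 that did not pass. H3C12, which did not pass in either comparison, had −0.79 ± 0.39 and −0.43 ± 0.36, and its annotated exons share 36.5% of windows with H2AC17.

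**Figure D4:**
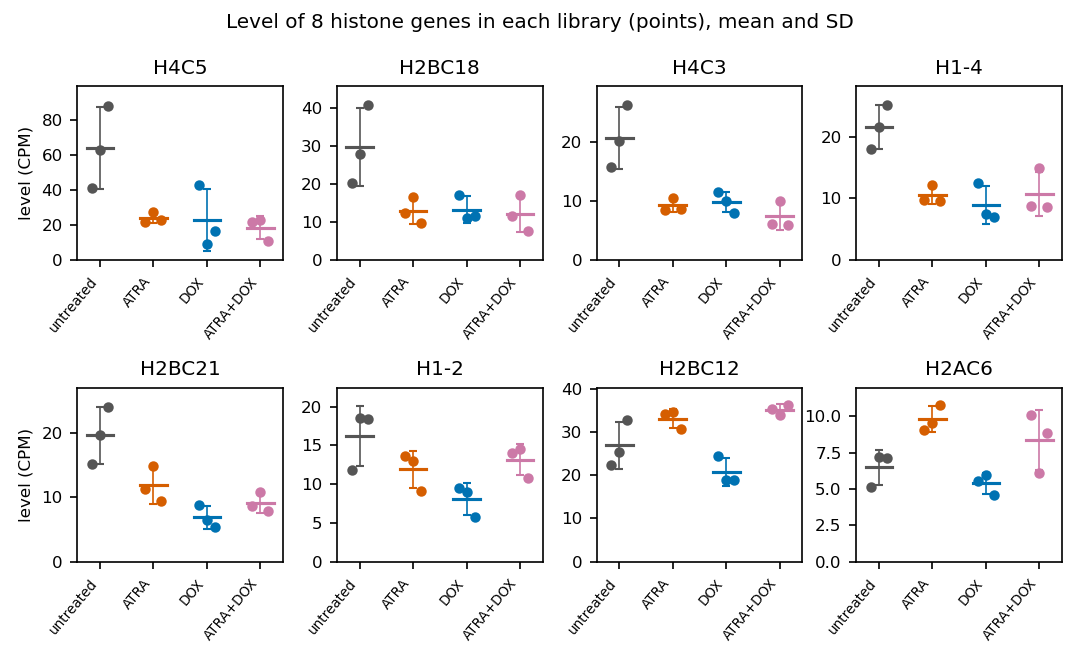
Level of 8 histone genes in each library (points), with the mean (bar) and SD (whiskers) of 3 libraries a group, in CPM on axes starting at 0. H4C5, H2BC18, H4C3, H1-4 and H2BC21 are highest in untreated cells, while H2BC12 and H2AC6 are highest in the groups given ATRA.

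The genes known to give polyadenylated mRNA (H1-2, H2AC6, H2BC4, H2BC5, H2BC12 and H2BC21) were read apart from the other 33. Under DOX 4 of the 6 and 30 of the 33 fell, with median changes of −0.92 and −1.33. Under ATRA 2 of the 6 fell and 1 rose (median −0.48), against 24 of 33 that fell (median −0.998). Their share of the summed histone level was 22.4, 21.3 and 20.4% in untreated replicates 1 to 3, 34.1, 30.3 and 33.3% with ATRA, 23.7, 31.5 and 28.99% with DOX and 35.4, 30.9 and 39.9% with both. Every treated library thus lay above every untreated one. H4 went the other way under ATRA: its share was 29.1, 29.9 and 32.8% in untreated cells, 22.3, 22.8 and 23.6% with ATRA, 32.4, 22.3 and 24.1% with DOX and 20.7, 21.9 and 18% with both. These shares are a description, and a difference between the lists was not tested.

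H2BC12 and H2AC6 stood apart from the set. H2BC12 was at 22.4, 25.5 and 32.9 CPM in untreated cells, at 34.2, 34.7 and 30.7 with ATRA, at 24.6, 19 and 18.8 with DOX and at 35.5, 34.0 and 36.3 with both. The ATRA and untreated libraries overlapped, and every ATRA+DOX library lay above every DOX library. Its change was −0.36 ± 0.13 under DOX (adjusted p = 0.0701) and 0.29 ± 0.13 under ATRA (adjusted p = 0.0914), neither of which passed. H2AC6 was at 5.12, 7.199 and 7.13 CPM untreated, 9.09, 9.56 and 10.8 with ATRA, 5.57, 5.98 and 4.61 with DOX and 10.1, 6.10 and 8.89 with both. Its ATRA libraries were above all untreated ones, and it rose by 0.58 ± 0.19 under ATRA (adjusted p = 0.025), with −0.22 ± 0.21 under DOX (adjusted p = 0.496). H2BC12 carries the octamer, CCAAT and TATAAA in its promoter as H2BC21 does. Members with the octamer anywhere in the promoter window had a median of −1.26 under DOX and −0.89 under ATRA. Those without it had −1.33 and −0.99, 17 genes each.

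In the presence of ATRA no histone gene was called changed by DOX. ATRA+DOX against ATRA gave 0 of 39 by edgeR; 1 had an unadjusted p under 0.05 (H2AC11, −0.51 ± 0.24), as had 3053 of the 16104 genes tested, and DESeq2 called 0 members. By edgeR 2.54% of all genes were called lower, 1.89% higher and 4.43% in either direction. The median was −0.21, with members from −0.58 to 0.33, and the summed level with both agents was 89.9% of that with ATRA. The count was 0 in every alternative that was run, but the median was 0.23 with the mitochondrial ribosomal RNA term, −0.10 without ATRA replicate 2 and −0.38 without ATRA+DOX replicate 2. NRIP1 itself fell here, with a log2 change of −1.22 ± 0.13 (edgeR adjusted p = 6.49e-06), as it did in DOX against untreated with −1.77 ± 0.13.

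Whether the DOX change differed with and without ATRA was tested by the interaction, in which 0 of 39 members were called by edgeR (0.267% of all genes, 0.0435% in the higher direction), 26 had an unadjusted p under 0.05 (1735 of the 16104 genes tested) and 5 were called by DESeq2. The interaction was above 0 for 38 of the 39 genes, with a median of 1.11, and with the mitochondrial ribosomal RNA term 0 were called and the median was 0.64. The smallest adjusted p was that of H1-4, at 1.25 ± 0.31 (edgeR adjusted p = 0.0882). Without DOX replicate 1, 23 members were called, without ATRA+DOX replicate 1 the count was 1, and without a filter on low counts it was 19, all higher. A p that misses the threshold does not show that the changes were alike.

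**Figure D5:**
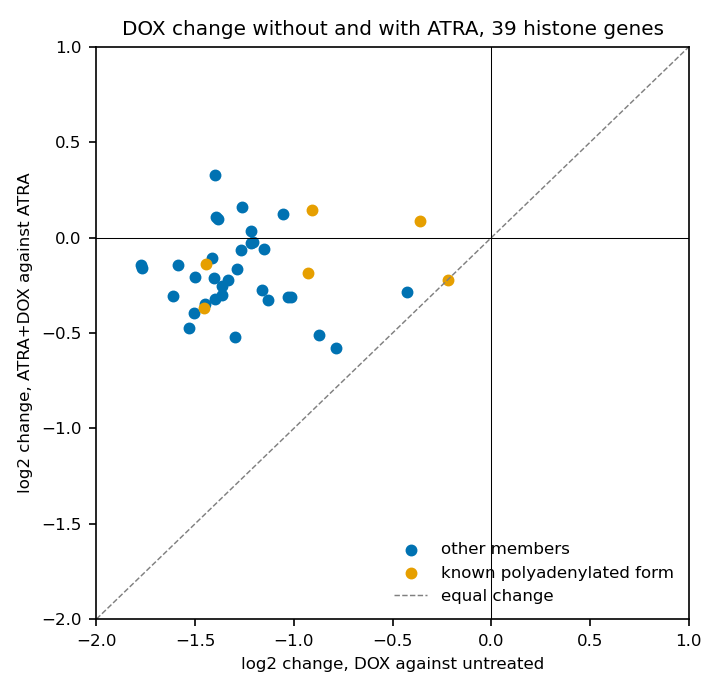
Log2 change of each of the 39 genes under DOX without ATRA (horizontal, DOX against untreated) and with it (vertical, ATRA+DOX against ATRA), the dashed line marking equal change. Points lie between −1.77 and −0.22 across and between −0.58 and 0.33 upward, and 38 of 39 lie above the line; 6 genes known to give a polyadenylated form are orange.

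ATRA+DOX against DOX gave 3 genes higher and 0 lower, where 10.7% of all genes were called higher and 8.24% lower: H2BC12 (0.74 ± 0.13, adjusted p = 0.000373), H1-2 (0.60 ± 0.20, adjusted p = 0.0379) and H2AC6 (0.58 ± 0.20, adjusted p = 0.0499). The members' share was thus below that of all genes. The 3 are among the 6 known for a polyadenylated form, and a difference between these 6 and the other 33 was not tested. In each, every ATRA+DOX library lay above every DOX library, which held for 4 members and 16.7% of all genes. The median over the 39 genes was 0.31. H2BC12 passed whichever library was left out, and the count was 1 without DOX replicate 3 or ATRA+DOX replicate 1 and 7 without DOX replicate 1. Without DOX replicate 2, 1 gene was called higher and 1 lower, and the median turned to −0.08. With the mitochondrial ribosomal RNA term 4 genes were called: H2BC12 higher, and H4C3, H4C5 and H4C8 lower. Without that term the 3 H4 genes had values of −0.47, −0.33 and −0.36 that did not pass.

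Histone variant genes known as replication-independent, most of them with ordinary poly(A) tails, were taken as a separate list, which also holds H2AX, known to give both a stem-loop and a polyadenylated mRNA. Of 10 tested from 12 such genes none was called under DOX by edgeR (2 at an unadjusted p under 0.05), and their median was 0.03. MACROH2A1, the macroH2A variant linked to silent chromatin, rose under ATRA, from 381 ± 9.03 to 543 ± 1.31 CPM (0.51 ± 0.08). H2AX, which is phosphorylated at DNA breaks, and H2AZ1 fell in ATRA+DOX against DOX, with log2 changes of −0.36 ± 0.09 and −0.38 ± 0.12. The H2AZ1 libraries overlapped slightly, at 449.25, 687 and 512 CPM with DOX and 386, 449.31 and 433 with both.

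S-phase genes, whose products copy DNA when histones are made, moved less under DOX. Of 32 tested, 4 fell (median −0.10), where 7.1% of all genes tested were called lower. The 4 included POLA1, the catalytic subunit of DNA polymerase alpha, at −0.62 ± 0.09. Under ATRA 20 of 32 fell (median −0.31), where 13.2% of all genes tested were called lower. The 20 included UHRF1, which recruits DNA methylation to new strands, at −0.79 ± 0.08. Also among them were CDT1, the licensing factor, at −0.61 ± 0.10 and CDC45, of the replicative helicase, at −0.56 ± 0.10. Against ATRA the ATRA+DOX group had 0 of 32 called by edgeR (4 at an unadjusted p under 0.05). Against DOX 5 fell in it, where 8.24% of all genes tested were called lower. Summed levels were 5060 ± 180 CPM untreated, 4015 ± 86.3 with ATRA, 4683 ± 438 with DOX and 4103 ± 366 with both. The DOX level was thus 92.5% of the untreated one for S-phase genes and 42.6% for the histone set. By replicate the S-phase sums were 5189, 5137 and 4854 CPM untreated and 4346, 5178 and 4526 with DOX. DOX replicate 1, lowest of its group for S-phase genes, was the highest for the histone set, and DOX replicate 2 was the reverse.

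The 21 genes for histone mRNA transcription, 3′ processing and decay had 1 call higher and 2 lower under DOX, and likewise under ATRA, where 15.2 and 28.9% of all genes were called in either direction. The DOX share of the list is thus near that of all genes. NPAT, the coactivator of histone promoters, fell in both, at −0.44 ± 0.11 and −0.37 ± 0.11. It was at 26.2, 24.9 and 25.5 CPM in untreated cells, 18.2, 18.5 and 22.7 with ATRA, 20.1, 18.3 and 17.3 with DOX and 19.8, 19.8 and 17.8 with both, each treated library lower than each untreated one. TUT7, a uridylyltransferase that acts in histone mRNA decay, fell under DOX (−0.47 ± 0.12) and rose in ATRA+DOX against DOX by 0.37 ± 0.12. SLBP, the stem-loop binding protein, had 0.17 ± 0.10 under DOX and −0.05 ± 0.10 under ATRA, neither of which passed.

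Among 21 histone chaperones and import factors, which carry new histones to chromatin, 2 rose and 2 fell under DOX, a share near the 15.2% of all genes. ASF1A, which hands H3 and H4 to the assembly factors, rose by 0.43 ± 0.11, and TONSL, which binds new H4 behind the fork, fell (−0.24 ± 0.08). Under ATRA 8 fell and 1 rose, where 13.2% of all genes tested were called lower and 15.7% higher. TONSL was at −0.43 ± 0.08 and NASP, a chaperone of the soluble H3 and H4 pool, at −0.38 ± 0.08. SSRP1, a subunit of FACT, was at −0.32 ± 0.08. Against DOX the ATRA+DOX group had 1 lower, TONSL (−0.33 ± 0.08), where 8.24% of all genes tested were called lower.

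Other RNAs that lack a poly(A) tail were read beside the histones, since both classes depend on how RNA is selected. Of 28 listed small nuclear, nucleolar and cytoplasmic RNAs 9 were tested. Under DOX 4 rose (8.08% of all genes tested did), among them RNU5A-1, a spliceosomal RNA, by 1.90 ± 0.44. RNU5A-1 had few counts, at 0.676, 0.429 and 0.552 CPM untreated and 2.39, 1.87 and 1.92 with DOX. SNORD3A, a nucleolar RNA for ribosomal RNA processing, rose by 1.31 ± 0.31, and its libraries overlapped. It was at 4.44, 5.66 and 5.80 CPM untreated and at 16.8, 14.4 and 3.84 with DOX. SCARNA7 fell under ATRA (−1.15 ± 0.42). Their summed levels were 222, 255 and 358 CPM in untreated cells, 244, 234 and 149.7 with ATRA, 245, 434 and 223 with DOX and 197, 213 and 264 with both. Most of each sum was RN7SL1, the RNA of the signal recognition particle, named after its values were seen, with 389 of the 434 CPM in DOX replicate 2. The part of RNA selection in the histone changes was not tested, nor was that of mitochondrial ribosomal RNA beyond the models with its share as a term.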

How the data were processed

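Total RNA of 12 MOLM14 libraries was sequenced. The authors deposited raw counts, whole numbers of reads for each gene. FastQC, STAR, HTSeq and the GRCh38 build are named in the submitters' processing notes; versions, annotation release and strand setting are not given in the sources used here. The table had 61487 gene rows, 61369 of them with a symbol in the table of gene names, and 23 empty columns. Groups came from the labels, 3 libraries each. Counts were filtered with filterByExpr, scaled by TMM and fitted with edgeR 4.0.16 (R 4.3.3, limma 3.58.1) as 1 quasi-likelihood model of 4 group means. P-values were adjusted by Benjamini-Hochberg over 16104 genes, with a threshold of 0.05. SE was derived from the F statistic. The code was tested on simulated counts. The biological coefficient of variation was 9.54%, and no library columns were identical. DESeq2 1.42.0, other scalings and filters, thinning to equal depth, a replicate block, a mitochondrial ribosomal RNA term and left-out libraries were alternatives.

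The members and all gene lists were chosen with earlier results of these data known. Every member could be named, and of each other list up to 4 genes with the smallest adjusted p. SLBP lies outside that rule and was named after its values were seen. CD3E and EPCAM lie outside it too, since they did not pass the filter on low counts and have no adjusted p. Promoter windows and the coordinates of H3C2 came from RefSeq (GRCh38.p14), other coordinates and transcripts from GENCODE release 29.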

Additional observations from a re-analysis of the deposited data

How the results depend on the processing

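The number of histone genes called depended most on which libraries were used and on the mitochondrial ribosomal RNA share. For DOX against untreated, 34 genes were called; with the mitochondrial ribosomal RNA term 0 were called (median −0.39), and leaving out single libraries gave 14 to 35. Leaving out untreated 3 and DOX 3 together gave 4, and a minimum of 1000 counts left 17 genes, 15 of them called. H2AC12, H2BC4 and H4C5 changed sign with the term, to 0.0554, 0.26 and 0.10 on the log2 scale, none of them called. For ATRA against untreated, 27 were called; single libraries left out gave 16 to 28, the pair left out 13 and the minimum of 1000 counts 14. For ATRA+DOX against DOX, 3 were called; the mitochondrial ribosomal RNA term gave 4 (1 higher and 3 lower), equal depth 1, the pair left out 1, and single libraries left out 1 to 7. ATRA+DOX against ATRA stayed at 0 in each alternative run, while its median turned from −0.21 to 0.23 with the term. For the interaction 0 were called; no filter on low counts gave 19, DESeq2 5 and single libraries left out 0 to 23. The causes were not tested.

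DESeq2 called 31 and 22 genes for DOX and ATRA against untreated, and scaling by library size alone 33 for DOX. At equal depth, where each library was thinned to the 2685984 counts of DOX replicate 3, 24 of 33 tested members were called for DOX. The replicate block gave 32 for DOX, 28 for ATRA, 2 for ATRA+DOX against DOX and 0 for the interaction. Replicate numbers did not pair the libraries: deviations of same-numbered libraries correlated at −0.24 to 0.27, 4 of 18 pairs above 0.1, and 3 of 12 libraries correlated best with their own number. Adding genes with older HIST names outside the symbols changed nothing, since none of them reached 100 counts. Depth limits the genes with few counts: H2AC15 and H2BC6 had 2 and 1 counts in DOX replicate 3.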
